A study of Mus musculus with 6 samples.

Results

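Rab GTPases are described here in CAD cells, a mouse catecholaminergic neuronal line, in which an siRNA against the circular RNA circGigyf2 was compared with a control siRNA. Members were all rows of the deposited table whose gene symbol was Rab followed by a number, with at most 1 letter and 1 more digit, so that Rab-interacting proteins were left out. This gave 59 of 24318 rows, of which 47 averaged 1 FPKM or more and were tested. FPKM count sequenced fragments per length of transcript and per depth of library, so levels of different genes can be compared. The symbols Rab1, Rab7, Rab9 and Rab39 are those of the table, and Rab1 is now called Rab1a.

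Libraries came from 3 samples with the circGigyf2 siRNA (siCircGigyf2) and 3 samples with the control siRNA (siNC). All were total RNA depleted of ribosomal RNA, from 1 cell line with no other allele or treatment named. The siRNA sequences, the time after transfection and whether replicates were separate cultures are not in the labels, and p-values therefore rest on a spread that may be technical. The depth each library reached is unknown. Steps between low FPKM values placed the siCircGigyf2 libraries at 0.803 to 0.914 and the other siNC libraries at 0.951 and 0.980 of the depth of siNC replicate 1. Gigyf2, the host gene of the circle, had 21.8, 21.1 and 21.3 FPKM under the circGigyf2 siRNA, against 23.2, 23.1 and 23.2 FPKM in siNC libraries. Gigyf2 was itself called lower (log2 difference -0.11, limma adjusted p = 0.0287). Its row is not specific to the circle, which has none of its own, so it hardly checks the knockdown. All 8 markers of the CAD lineage were detected in every library, with summed FPKM of 445 to 459 in siCircGigyf2 libraries and 385 to 393 in siNC libraries, although Th, the rate-limiting enzyme of catecholamine synthesis, reached only 2.82 to 4.85 FPKM. These markers did not move together. Tubb3, a neuronal tubulin, was at 172, 187 and 173 FPKM in siCircGigyf2 libraries and at 123, 116 and 122 FPKM in siNC libraries, and with Hand2 made up most of the higher sum. Dbh, which makes noradrenaline, was lower in every siCircGigyf2 library, at 1.18, 1.31 and 0.925 FPKM against 1.81, 2.14 and 1.34 FPKM in siNC libraries. The 8 markers of glia and endothelium summed to 6.19 to 7.89 FPKM with the circGigyf2 siRNA and to 6.54 to 7.23 FPKM with the control. Pecam1 made up most of that sum at 5.86 to 7.13 FPKM, and Aldh1l1 and P2ry12 were listed at 0 in all 6 libraries. The part of these marker levels in the results was not tested.

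Rab proteins are small GTPases that give membranes their identity. Exchange factors load them with GTP on a given organelle, where they recruit tethers, motors and other effectors, and GTPase-activating proteins return them to the GDP form. A GDP dissociation inhibitor then extracts them from the membrane through the lipids carried on cysteines at their C-terminus. In neurons and neuroendocrine cells, Rab3 proteins and Rab27 sit on synaptic vesicles and secretory granules, and other members run the Golgi, endosomes, lysosomes and cilium.

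The 3' ends of the coding sequences of 11 members are shown because these genes, close paralogs of one another, carry the results that follow. Each line gives the last 90 coding bases, stop codon included, from the GENCODE M21 transcript of longest coding sequence (build GRCm38). Capitals mark cysteine codons among the last 5 codons before the stop, the cysteines that receive the lipid anchor.
Rab3a: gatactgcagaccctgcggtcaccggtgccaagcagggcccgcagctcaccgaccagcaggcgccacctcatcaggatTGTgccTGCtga
Rab3c: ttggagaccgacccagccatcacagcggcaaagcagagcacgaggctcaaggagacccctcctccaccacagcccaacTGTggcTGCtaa
Rab3d: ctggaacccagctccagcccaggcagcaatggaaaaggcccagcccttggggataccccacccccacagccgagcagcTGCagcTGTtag
Rab4a: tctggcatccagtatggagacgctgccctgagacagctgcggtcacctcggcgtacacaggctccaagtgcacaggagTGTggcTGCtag
Rab4b: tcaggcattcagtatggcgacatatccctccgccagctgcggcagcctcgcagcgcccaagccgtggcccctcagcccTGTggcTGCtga
Rab11a: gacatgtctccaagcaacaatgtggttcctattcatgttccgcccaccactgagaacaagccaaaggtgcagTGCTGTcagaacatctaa
Rab11b: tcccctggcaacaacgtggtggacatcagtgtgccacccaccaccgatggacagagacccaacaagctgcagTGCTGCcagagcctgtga
Rab6a: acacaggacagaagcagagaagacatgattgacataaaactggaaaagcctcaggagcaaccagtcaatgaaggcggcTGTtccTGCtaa
Rab6b: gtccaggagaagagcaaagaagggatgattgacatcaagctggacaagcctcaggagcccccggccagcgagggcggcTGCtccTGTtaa
Rab39: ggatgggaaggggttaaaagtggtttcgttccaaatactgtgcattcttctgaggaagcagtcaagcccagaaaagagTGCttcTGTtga
Rab39b: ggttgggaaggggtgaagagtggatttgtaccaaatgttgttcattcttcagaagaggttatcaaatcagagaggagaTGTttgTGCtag

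All 11 carry a pair of cysteine codons there, adjacent in the 2 Rab11 genes, where other codons follow, and split by 1 codon in the other 9, where the pair ends the protein. Over the whole coding sequence, Rab11a and Rab11b were identical at 75.7% of aligned bases, Rab4a and Rab4b at 74.8%, Rab6a and Rab6b at 78.5%, and Rab39 and Rab39b at 72.5%. Among Rab3a, Rab3c and Rab3d the pairs were identical at 74.2% to 76.2% of aligned coding bases. Within the last 90 bases they were identical at 51.2% to 64.0% of aligned bases.

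Of the 47 Rab genes tested, 12 were higher and 10 were lower in siCircGigyf2 libraries, and 25 did not pass (limma, adjusted p under 0.05 over all 11420 genes tested). That is 46.8% of the members, where 38.2% of all genes tested were called, 19.5% higher and 18.7% lower. In bulk libraries fewer cells of a kind and less RNA per cell cannot be told apart. The differences lay between -0.39 and 0.49 on the log2(FPKM + 1) scale, with a median of 0.022 over the members and 0.00035 over all genes. Called members had a median absolute difference of 0.26, against 0.25 for all called genes. For 26 members the groups held no overlapping values, where 51.0% of all genes tested showed no overlap. Across the 47 members, mean FPKM and log2 difference had a Spearman rho of 0.13, a description over genes measured in the same libraries.

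**Figure D1:**
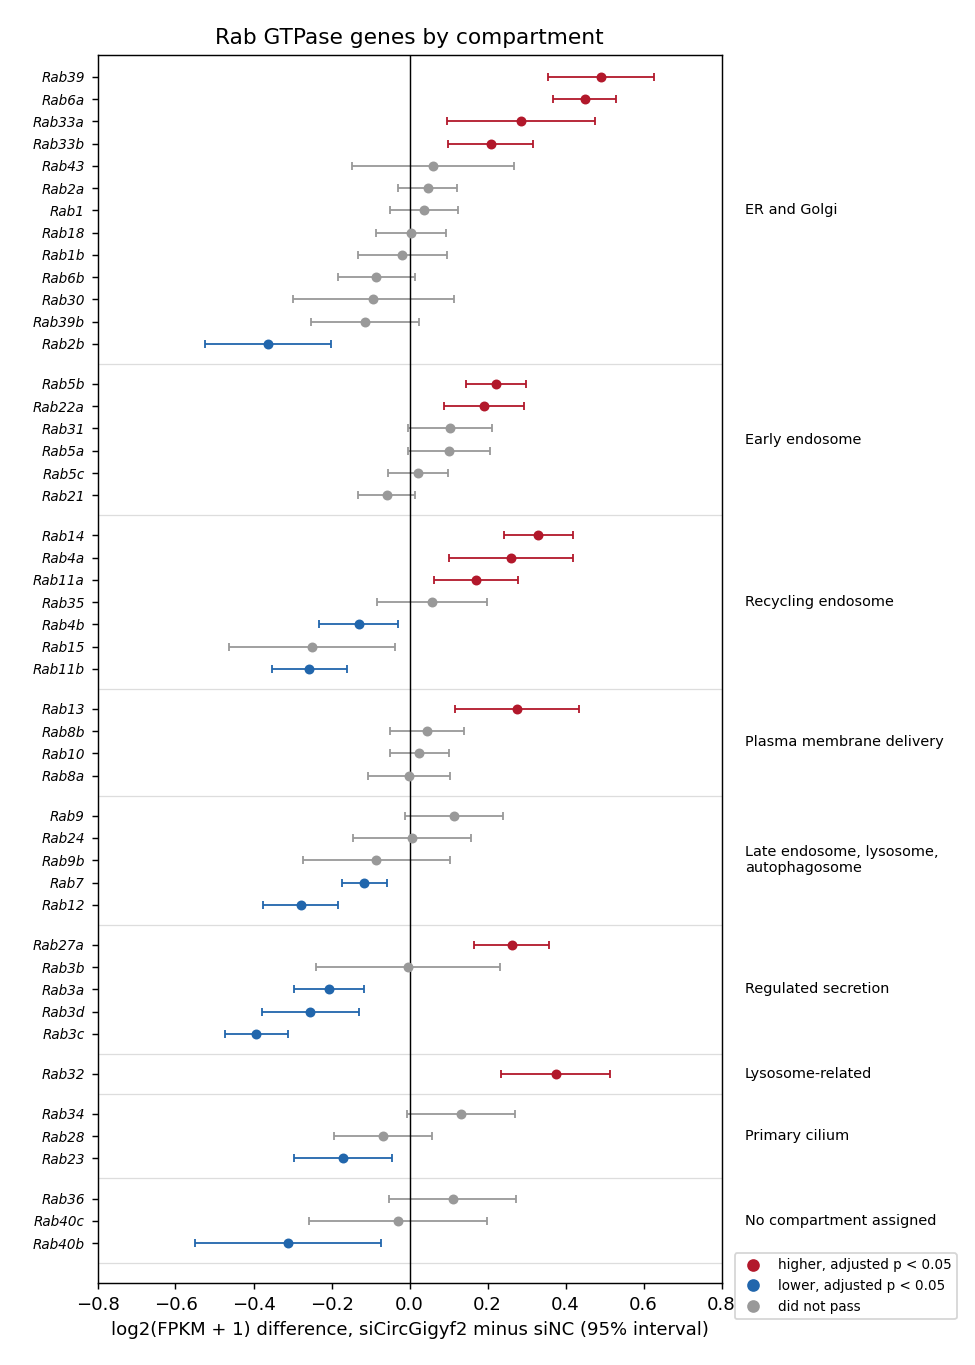
Difference between siCircGigyf2 and siNC on the log2(FPKM + 1) scale for each of the 47 Rab genes tested, grouped by compartment, with points for limma estimates and bars for 95% intervals. Red marks the 12 genes that were higher, blue the 10 that were lower and grey the 25 that did not pass an adjusted p of 0.05, and red and blue occur together in the groups of the endoplasmic reticulum and Golgi, recycling endosomes and regulated secretion.

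Rab genes of regulated secretion differed in both directions at the RNA level. Of 5 tested, 1 rose and 3 fell (80%, where 38.2% of all genes tested were called). Rab3a, Rab3c and Rab3d all fell, and their proteins sit on synaptic vesicles and secretory granules and control docking and release. Rab27a, whose protein docks secretory granules and lysosome-related organelles, rose. Rab3c, the most abundant of this group, was at 42.2, 39.4 and 39.8 FPKM in siCircGigyf2 libraries, against 54.1, 52.3 and 54.0 FPKM in siNC libraries. All 3 siCircGigyf2 values lay below all siNC values, and the log2 difference of -0.39 (SE 0.036, limma adjusted p = 8.4e-05) was the largest fall among the Rab genes tested on the log2(FPKM + 1) scale, which understates changes of low genes. By ratio of means Rab40b (0.745) and Rab2b (0.755) lay just below Rab3c (0.757). Rab3a, the main form in brain synapses, was at 22.8, 24.1 and 24.8 FPKM with the circGigyf2 siRNA and at 27.4, 28.4 and 27.3 FPKM with the control. Rab3d, known from granules of exocrine cells, was at 8.50, 8.68 and 9.62 FPKM in siCircGigyf2 libraries and at 11.2, 10.6 and 10.7 FPKM in siNC libraries. Neither gene's groups overlapped, and the log2 differences were -0.21 for Rab3a (SE 0.040, limma adjusted p = 0.0037) and -0.25 for Rab3d (SE 0.055, limma adjusted p = 0.0062). Rab3b was near the filter, at 0.903, 1.11 and 1.15 FPKM against 0.867, 1.27 and 1.05 FPKM in siNC libraries, and its log2 difference of -0.0038 had a 95% interval of -0.24 to 0.23. Rab27a moved the other way, with 19.2, 18.6 and 17.7 FPKM in siCircGigyf2 libraries and 15.4, 14.9 and 15.5 FPKM in siNC libraries. Every siCircGigyf2 library was above every siNC library, a log2 difference of 0.26 (SE 0.042, limma adjusted p = 0.0014). Rab26, Rab27b and Rab37 were under the filter, and the highest of their values in any library was 0.574 FPKM, for Rab26.

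**Figure D2:**
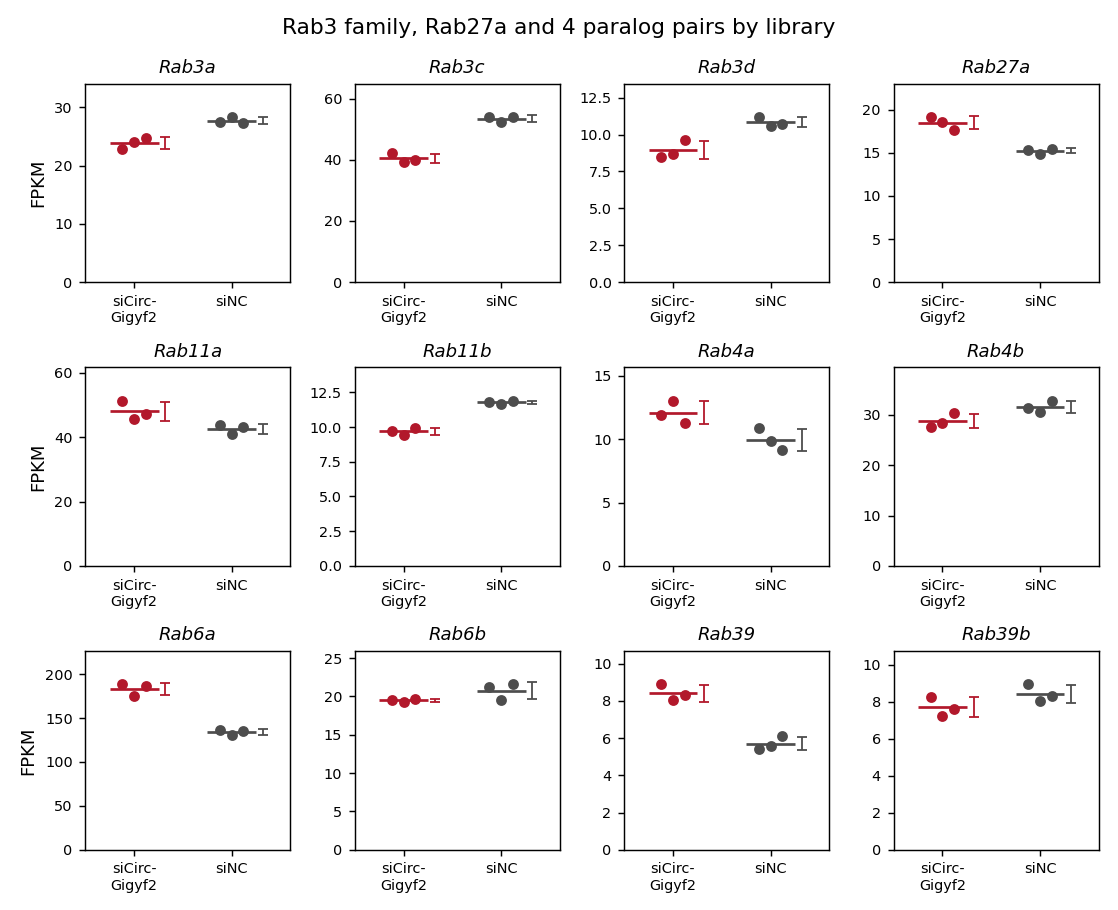
FPKM in each library for Rab3a, Rab3c, Rab3d, Rab27a and the paralog pairs Rab11a/Rab11b, Rab4a/Rab4b, Rab6a/Rab6b and Rab39/Rab39b, on linear axes from 0. Points are single libraries, horizontal lines group means and bars the SD (n = 3), and the groups separate in every panel but Rab6b and Rab39b.

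Recycling endosome genes split within paralog pairs. Rab11a and Rab4a rose while Rab11b and Rab4b fell, and Rab14 rose, so that 3 of 7 tested members were higher and 2 lower (71.4%, where 38.2% of all genes tested were called). The calls of Rab4a, Rab4b and Rab11a were lost when some single libraries were removed. Rab14, which works between the Golgi and endosomes, was at 86.4, 84.6 and 85.5 FPKM with the circGigyf2 siRNA and at 69.1, 64.0 and 70.6 FPKM with the control. The groups stood apart, with a log2 difference of 0.33 (SE 0.039, limma adjusted p = 0.00027). Rab11a, the general regulator of slow recycling, was at 51.3, 45.6 and 47.1 FPKM in siCircGigyf2 libraries, against 43.7, 40.9 and 43.0 FPKM in siNC libraries. Its paralog Rab11b, known to be abundant in brain, was at 9.72, 9.42 and 9.95 FPKM in siCircGigyf2 libraries and at 11.8, 11.7 and 11.9 FPKM in siNC libraries. Neither overlapped between groups, and the log2 differences had opposite signs, 0.17 for Rab11a (SE 0.047, limma adjusted p = 0.0208) and -0.26 for Rab11b (SE 0.042, limma adjusted p = 0.0016). The call for Rab11a was lost without siCircGigyf2 replicate 1 (limma adjusted p = 0.0534) or siNC replicate 2 (0.0728), and that for Rab11b was kept in every alternative.

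Rab4a and Rab4b, regulators of fast recycling from early endosomes, had calls that depended on single libraries. Rab4a was at 11.9, 13.0 and 11.3 FPKM with the circGigyf2 siRNA and at 10.9, 9.85 and 9.11 FPKM with the control. Rab4b was at 27.6, 28.4 and 30.4 FPKM in siCircGigyf2 libraries and at 31.3, 30.6 and 32.8 FPKM in siNC libraries. The nearest libraries of the groups lay close together for both genes without overlapping, with log2 differences of 0.26 for Rab4a (SE 0.070, limma adjusted p = 0.0182) and -0.13 for Rab4b (SE 0.045, limma adjusted p = 0.0467). Rab4a no longer passed without siCircGigyf2 replicate 2 (limma adjusted p = 0.0602), siNC replicate 2 (0.0521) or siNC replicate 3 (0.0611). Rab4b kept its call only when siCircGigyf2 replicate 3 was the library removed, with limma adjusted p of 0.138 and 0.108 without siCircGigyf2 replicates 1 and 2, and of 0.0920, 0.0522 and 0.151 without siNC replicates 1, 2 and 3. In addition, 80.3% of the 50-base words of Rab4b also occur in Gm21983, an annotated transcript on the same strand, so their reads cannot be told apart and the Rab4b value is uncertain. Rab15, of neuronal endosomes, and Rab35, of fast recycling, did not pass. Rab15 had 1.93, 2.19 and 2.08 FPKM against 2.23, 2.71 and 3.04 FPKM in siNC libraries, values that did not overlap, and passed only without siNC replicate 1 (limma adjusted p = 0.0219). For Rab35 the log2 difference was 0.058, with a 95% interval of -0.084 to 0.20.

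Of 13 tested members of the endoplasmic reticulum and Golgi, 4 rose, 1 fell and 8 did not pass, so that 38.5% were called, near the 38.2% of all genes tested. Rab6a, which directs retrograde and exocytic traffic at the trans-Golgi, was at 188, 175 and 187 FPKM in siCircGigyf2 libraries and at 136, 131 and 135 FPKM in siNC libraries. The lowest siCircGigyf2 library stood well above the highest siNC library, and the log2 difference of 0.45 (SE 0.035, limma adjusted p = 4.4e-05) came with a ratio of means of 1.37. Rab6b, its neuronal paralog, was at 19.6, 19.3 and 19.7 FPKM with the circGigyf2 siRNA and at 21.2, 19.5 and 21.6 FPKM with the control. One siNC library lay inside the siCircGigyf2 range, the log2 difference was -0.085 (95% interval -0.18 to 0.013), and the gene passed only without siNC replicate 2 (limma adjusted p = 0.0457).

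Rab39, an endosome and Golgi Rab, had the largest rise of the family. It was at 8.88, 8.03 and 8.29 FPKM in siCircGigyf2 libraries and at 5.40, 5.58 and 6.09 FPKM in siNC libraries, with no overlap, a ratio of 1.48 and a log2 difference of 0.49 (SE 0.060, limma adjusted p = 0.00035). Rab39b, a neuronal paralog mutated in X-linked intellectual disability with parkinsonism in humans, was at 8.28, 7.25 and 7.60 FPKM against 8.94, 8.02 and 8.30 FPKM in siNC libraries. Those groups overlapped, with a log2 difference of -0.11 (95% interval -0.25 to 0.025). Both Rab33 genes rose. Rab33b, a Golgi Rab that binds the autophagy protein ATG16L1, was at 17.8, 17.1 and 15.9 FPKM with the circGigyf2 siRNA and at 14.5, 14.1 and 14.8 FPKM with the control (log2 difference 0.21, SE 0.048, limma adjusted p = 0.0085). Rab33a was at 1.68, 1.48 and 1.57 FPKM in siCircGigyf2 libraries and at 1.03, 1.23 and 1.08 FPKM in siNC libraries (log2 difference 0.28, SE 0.084, limma adjusted p = 0.0258). The siCircGigyf2 libraries were the higher ones for both. Rab33a is of low abundance, its difference was 0.47 with a pseudocount of 0.1 in place of 1, and its call was lost without siCircGigyf2 replicate 1 or 3 (limma adjusted p = 0.0713 and 0.0566) and without siNC replicate 1 or 3 (0.0841 and 0.0720).

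Rab2b was the Golgi member that fell, with a value made uncertain by opposite-strand overlaps given below. It was at 7.71, 8.07 and 6.95 FPKM in siCircGigyf2 libraries and at 11.0, 9.49 and 9.59 FPKM in siNC libraries, with no overlap and a log2 difference of -0.36 (SE 0.071, limma adjusted p = 0.0039). Rab2a, the major form of this regulator of Golgi traffic, did not pass, at 101.9, 95.7 and 100.1 FPKM against 96.3, 93.8 and 97.9 FPKM in siNC libraries. Rab1, which drives transport from the endoplasmic reticulum to the Golgi, had the highest mean FPKM of all Rab genes over the 6 libraries, at 185, 168 and 176 FPKM with the circGigyf2 siRNA and at 175, 168 and 173 FPKM with the control. Its log2 difference of 0.037 had a 95% interval of -0.050 to 0.12, and that of Rab1b, -0.019, one of -0.13 to 0.095. Rab18, of the endoplasmic reticulum and lipid droplets, Rab30 and Rab43, both of the Golgi, also did not pass, with log2 differences of 0.0041, -0.092 and 0.061.

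At the early endosome 2 of 6 tested members rose and 0 fell, 33.3% where 38.2% of all genes tested were called. Rab5b, 1 of 3 isoforms of the master regulator of early endosome fusion, was at 67.2, 65.2 and 67.9 FPKM in siCircGigyf2 libraries and at 57.5, 55.1 and 58.9 FPKM in siNC libraries. Rab22a, of early endosome sorting, was at 49.8, 44.9 and 45.0 FPKM in siCircGigyf2 libraries and at 41.9, 39.9 and 40.1 FPKM in siNC libraries. Both were higher in every siCircGigyf2 library, with log2 differences of 0.22 for Rab5b (SE 0.034, limma adjusted p = 0.0011) and 0.19 for Rab22a (SE 0.045, limma adjusted p = 0.0097). Rab5a, the most abundant member of the group, was at 75.1, 69.6 and 78.3 FPKM against 71.2, 66.5 and 69.9 FPKM in siNC libraries. It overlapped between groups and passed only without siCircGigyf2 replicate 2 (limma adjusted p = 0.0238). Rab5c differed by 0.022 (95% interval -0.054 to 0.099), Rab21, of integrin uptake, by -0.058 (-0.13 to 0.014) and Rab31, of traffic between Golgi and endosomes, by 0.10 (-0.0038 to 0.21). Ratios among the Rab5 genes are given below with those of the other paralogs, where no test could pass 0.05.

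Late endosome, lysosome and autophagosome members gave 2 falls and 0 rises among 5 tested, a share near the 38.2% of all genes tested. Rab7, which matures late endosomes and drives their fusion with lysosomes, was at 108.5, 107.9 and 109.8 FPKM with the circGigyf2 siRNA and at 118, 118 and 119 FPKM with the control. Rab12, which sends receptors from recycling endosomes to lysosomes, was at 20.2, 20.6 and 22.0 FPKM in siCircGigyf2 libraries and at 26.2, 24.7 and 25.9 FPKM in siNC libraries. The groups did not overlap for either gene. Rab7 fell by 0.12 (SE 0.026, limma adjusted p = 0.0073) and Rab12 by 0.28 (SE 0.042, limma adjusted p = 0.0011) on the log2 scale. Rab9, of return traffic from late endosomes to the Golgi, was at 65.2, 55.4 and 63.4 FPKM against 55.6, 57.2 and 56.6 FPKM in siNC libraries. Its siCircGigyf2 replicate 2 was the lowest of all 6 libraries, and without it Rab9 passed with a log2 difference of 0.18, against 0.11 with it (limma adjusted p = 0.0040 and 0.136). Rab9b, and Rab24 of autophagosomes, differed by -0.086 and 0.0064 and did not pass. Rab32, of melanosomes and mitochondria and the only tested member of the lysosome-related group, was at 7.13, 7.02 and 6.81 FPKM in siCircGigyf2 libraries and at 5.61, 4.79 and 5.10 FPKM in siNC libraries. It rose without overlap (log2 difference 0.37, SE 0.062, limma adjusted p = 0.0016).

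Of 4 tested Rab genes of delivery to the plasma membrane, 1 rose and 0 fell (25%, where 38.2% of all genes tested were called). Rab13, of epithelial junctions and neurite growth, was at 3.22, 3.32 and 3.56 FPKM in siCircGigyf2 libraries and at 2.42, 2.76 and 2.65 FPKM in siNC libraries. The groups did not overlap and Rab13 rose (log2 difference 0.28, SE 0.070, limma adjusted p = 0.0138), a call lost without siNC replicate 1 (limma adjusted p = 0.0519). Rab10, the most abundant of this group and a carrier of membrane to growing axons, was at 58.3, 55.5 and 57.1 FPKM against 57.2, 54.3 and 56.4 FPKM in siNC libraries. Differences of Rab10, Rab8a and Rab8b were 0.025, -0.00029 and 0.045, and no bound of their 95% intervals exceeded 0.14 in size.

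Of the 3 tested Rab genes linked to the primary cilium, Rab23 fell and 0 rose (33.3%, where 38.2% of all genes tested were called). Rab23, an inhibitor of Hedgehog signalling, was at 5.77, 5.60 and 5.32 FPKM with the circGigyf2 siRNA and at 6.29, 6.68 and 6.19 FPKM with the control, a log2 difference of -0.17 (SE 0.055, limma adjusted p = 0.0375). The groups did not overlap, but the call was lost after quantile normalization (0.0630), with the replicate number as a block (0.0612), and without siCircGigyf2 replicate 2 or 3 (limma adjusted p = 0.0704 and 0.106) or siNC replicate 1, 2 or 3 (0.0751, 0.123 and 0.0596). Rab28, known for its role in cone photoreceptors, was at 36.7, 31.3 and 32.5 FPKM in siCircGigyf2 libraries and at 35.5, 35.6 and 34.2 FPKM in siNC libraries, and passed only without siCircGigyf2 replicate 1, as a fall of 0.13 (limma adjusted p = 0.0305). Rab34, needed for early cilium formation, was at 31.7, 28.2 and 27.0 FPKM against 26.8, 24.8 and 27.4 FPKM in siNC libraries and did not pass. In both genes the groups overlapped.

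Of the 3 tested members given no compartment, Rab40b fell and 0 rose (33.3%, where 38.2% of all genes tested were called). Rab40 proteins carry a SOCS box and serve as substrate receptors of a cullin ubiquitin ligase. Rab40b was at 2.64, 2.59 and 2.82 FPKM in siCircGigyf2 libraries and at 2.84, 4.09 and 3.88 FPKM in siNC libraries, a log2 difference of -0.31 (SE 0.105, limma adjusted p = 0.0446). One siNC library lay just above the siCircGigyf2 range, and among the fits with 1 library left out the call held only without siNC replicate 1, since limma adjusted p was 0.105, 0.107 and 0.0683 without siCircGigyf2 replicates 1, 2 and 3 and 0.145 and 0.133 without siNC replicates 2 and 3. It was also lost after quantile normalization (0.0587) and without a variance trend (0.0535). Rab40c, with 5.71, 7.67 and 7.57 FPKM against 7.43, 6.47 and 7.42 FPKM in siNC libraries, did not pass, nor did Rab36, at 2.96, 3.16 and 3.49 FPKM against 2.84, 3.02 and 2.81 FPKM in siNC libraries.

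The remaining 12 Rab rows had a mean FPKM under 1 and were not tested. Rab7b, Rab17, Rab29 and Rab38 were listed at 0 in all 6 libraries, which in this table need not mean absence. The other 8 were Rab19, Rab20, Rab25, Rab26, Rab27b, Rab37, Rab42 and Rab44, with means from 0.0083 to 0.70 FPKM. The highest of them, Rab42, was at 0.552, 0.498 and 0.457 FPKM in siCircGigyf2 libraries and at 1.38, 0.831 and 0.486 FPKM in siNC libraries. With no filter on low values the smallest limma adjusted p among these rows was 0.231.

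The balance between paralogs is given by the ratio of their FPKM within each library. Of 19 pairs of tested genes that share a number, 2 were called in opposite directions, Rab4a with Rab4b and Rab11a with Rab11b. The ratio of Rab11a to Rab11b was 5.28, 4.83 and 4.74 in siCircGigyf2 libraries and 3.71, 3.51 and 3.62 in siNC libraries, and that of Rab4a to Rab4b was 0.432, 0.460 and 0.372 against 0.347, 0.322 and 0.277 in siNC libraries. In both pairs the share of the first gene was higher in every siCircGigyf2 library. Rab6a stood to Rab6b at 9.63, 9.11 and 9.48 in siCircGigyf2 libraries and at 6.43, 6.68 and 6.28 in siNC libraries. Rab39 exceeded Rab39b in all siCircGigyf2 libraries, at ratios of 1.07, 1.11 and 1.09, and lay below it in all siNC libraries, at 0.604, 0.696 and 0.733. The ratio of Rab2a to Rab2b was 13.2, 11.9 and 14.4 with the circGigyf2 siRNA and 8.72, 9.89 and 10.2 with the control. Rab5b to Rab5c gave 1.29 in all 3 siCircGigyf2 libraries and 1.10, 1.12 and 1.16 in siNC libraries. Rab5a to Rab5b gave 1.12, 1.07 and 1.15 in siCircGigyf2 libraries and 1.24, 1.21 and 1.19 in siNC libraries. The pairs are not independent, since the Rab3 and Rab5 genes each enter more than 1 of them. Among single genes, 51.0% of all genes tested showed no overlap, and no such share was computed for ratios. With Rab5a to Rab5c added, 8 of the 19 pairs had ratios that did not overlap between groups. Each of these 8 had an exact two-sided permutation p of 0.1, the smallest that 3 against 3 libraries allow, and 0.238 after Benjamini-Hochberg adjustment over the 19 pairs, so no ratio could pass a threshold of 0.05.

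**Figure D3:**
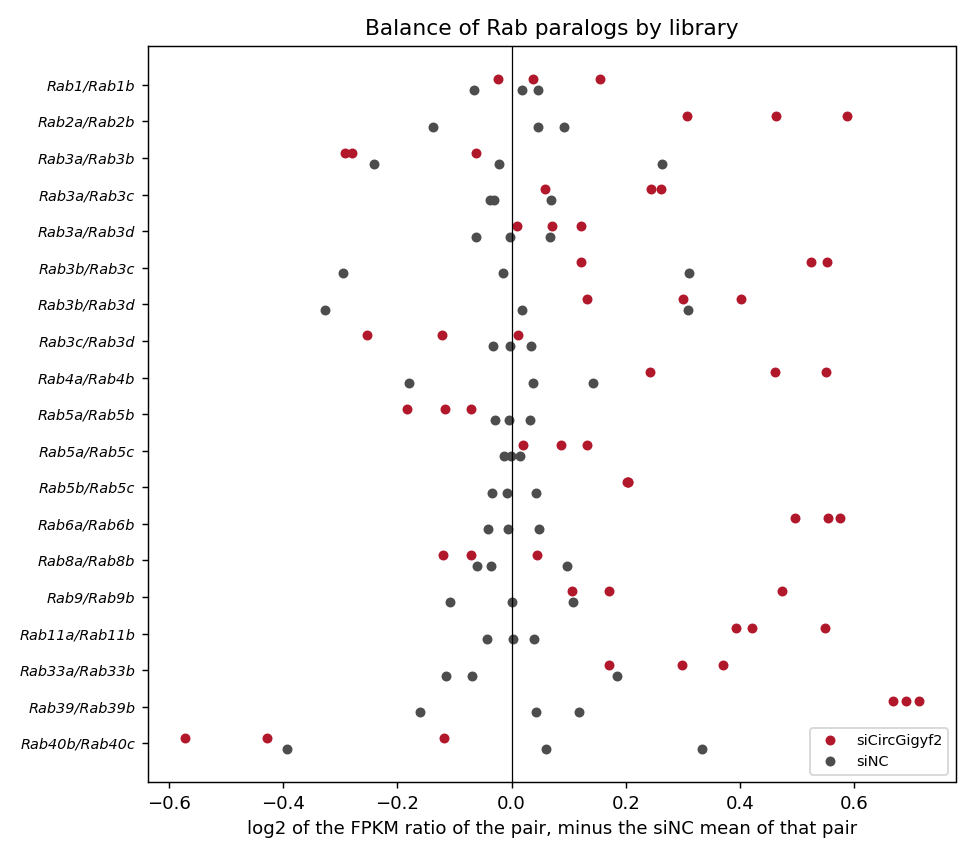
Log2 ratio of FPKM of the first to the second gene of each of 19 Rab paralog pairs, 1 point per library, set relative to the mean of that pair in siNC libraries, so that points right of 0 favour the first gene. Red points (siCircGigyf2) lie clear of grey points (siNC) in 8 pairs, with Rab39/Rab39b, Rab6a/Rab6b, Rab11a/Rab11b and Rab2a/Rab2b farthest right.

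Summed over all 59 rows, Rab FPKM came to 1621, 1542 and 1597 in siCircGigyf2 libraries and 1531, 1476 and 1524 in siNC libraries, a ratio of means of 1.05. FPKM of all genes also summed higher in siCircGigyf2 libraries, to 624645, 604881 and 612649, against 596803, 578627 and 601552 in siNC libraries. The higher Rab sum is therefore not particular to Rab genes. Golgi and endoplasmic reticulum members made up 37.7%, 36.9% and 37.2% of that sum with the circGigyf2 siRNA and 35.5%, 35.2% and 35.4% with the control. In that group Rab6a averaged 183 ± 6.98 FPKM in siCircGigyf2 libraries, against 134 ± 3.10 FPKM in siNC libraries (SD, n = 3). Members of regulated secretion summed to 94.3, 92.4 and 93.7 FPKM in siCircGigyf2 libraries and to 109.6, 108.0 and 109.1 FPKM in siNC libraries. That is 5.82%, 5.99% and 5.87% of Rab FPKM against 7.16%, 7.32% and 7.16% in siNC libraries, lower in every siCircGigyf2 library. Rab3c, the most abundant of these members, averaged 40.5 ± 1.55 FPKM in siCircGigyf2 libraries, against 53.4 ± 1.04 FPKM in siNC libraries (SD, n = 3). Rab27a went the other way, with means of 18.5 and 15.2 FPKM. Recycling endosome members summed to 203, 197 and 200 FPKM against 181, 173 and 185 FPKM in siNC libraries, of which Rab14 alone was the largest part. These sums describe the libraries, and no test was made of them, since the members and groups were chosen by hand.

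**Figure D4:**
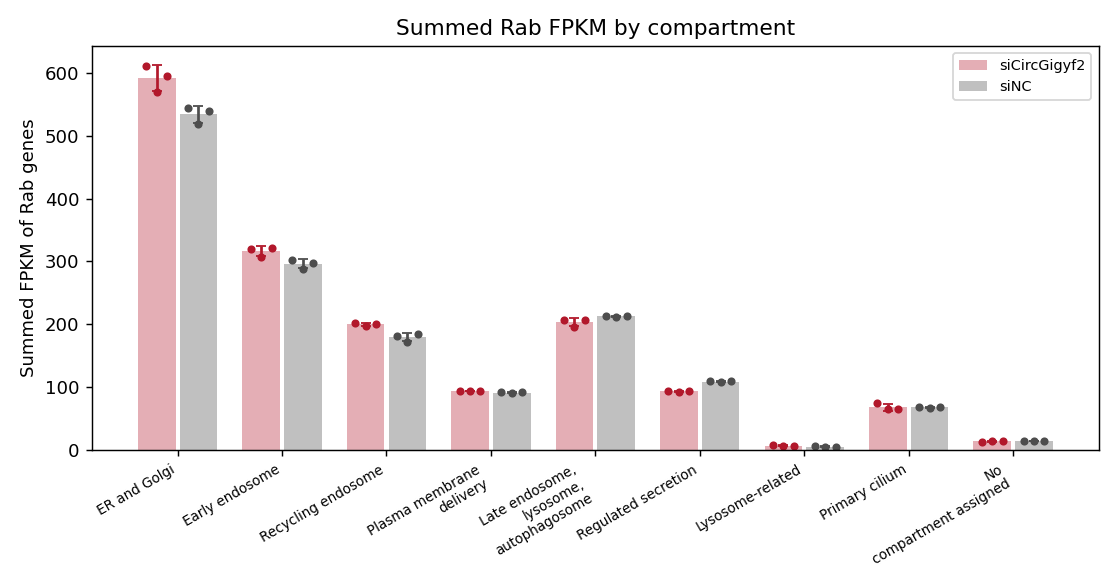
Summed FPKM of the Rab genes of each compartment, with bars for group means, error bars for the SD (n = 3) and points for single libraries. Regulated secretion is lower in siCircGigyf2 (92.4 to 94.3 FPKM) than in siNC (108.0 to 109.6 FPKM), and the endoplasmic reticulum and Golgi group is higher (570 to 611 FPKM against 519 to 544 FPKM).

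Genes that act on Rab proteins also changed in both directions. Of 11 genes of prenylation and Rab extraction, 4 rose and 3 fell (63.6%, where 38.2% of all genes tested were called), with a median log2 difference of 0.057. Gdi2, a GDP dissociation inhibitor, was at 252, 246 and 247 FPKM in siCircGigyf2 libraries and at 311, 304 and 307 FPKM in siNC libraries. The groups were far apart, with a log2 difference of -0.31 (SE 0.027, limma adjusted p = 7.1e-05). Pde6d, which carries prenylated proteins through the cytosol, rose by 0.40 and Chml, a Rab escort protein, by 0.36 (limma adjusted p = 0.00045 and 0.0012). Both subunits of the geranylgeranyl transferase that modifies Rabs, Rabggta and Rabggtb, chosen after their values were seen, did not pass.

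Of 41 tested exchange factor genes, 5 rose and 9 fell (34.1%, median 0.028), where 38.2% of all genes tested were called. Mon1b, part of the Rab7 exchange factor, fell by 0.38, Rgp1, part of the Rab6 exchange factor, by 0.25, and the TRAPP subunits Trappc1 and Trappc2 by 0.30 and 0.73 on the log2 scale, with limma adjusted p of 0.00032 to 0.0042. Trappc2 was uneven among siCircGigyf2 libraries, at 6.73, 10.7 and 10.9 FPKM, against 16.2, 16.8 and 14.9 FPKM in siNC libraries. Of 30 GTPase-activating genes, 9 rose and 2 fell (36.7%, median 0.030). Tbc1d9, Tbc1d12 and Tbc1d10b rose by 0.41, 0.36 and 0.19, and Tbc1d15, which acts on Rab7, fell by 0.16 (limma adjusted p between 0.00047 and 0.0113). Of 59 effector genes, 10 rose and 12 fell (37.3%, median 0.013). Ocrl, an inositol phosphatase that binds several Rabs, averaged 6.74 ± 0.329 FPKM in siCircGigyf2 libraries, against 10.7 ± 0.311 FPKM in siNC libraries (SD, n = 3), a log2 fall of 0.59. Ankfy1, a Rab5 effector, and Myo5a, a myosin motor of secretory vesicles, fell by 0.34 and 0.24, and Rph3al, an effector of Rab3 and Rab27 in secretory granules, rose by 0.31 (limma adjusted p between 6.4e-05 and 0.0013 for these 4 genes). None of the 4 tested genes of LRRK kinases and the phosphatases that reverse Rab phosphorylation passed by limma, with 0 of 4 also at an unadjusted p under 0.05. Over all lists, 28 of 145 tested genes rose and 26 fell (37.2%), near the 38.2% of all genes tested.

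Features of the transcripts that played no part in choosing the members were compared as a description. Median 3' UTR length was 2173 bases over the tested Rab genes, and 2007 bases for those that rose, 1640 bases for those that fell and 2359 bases for the rest, against 1354 bases over 10906 tested genes with an annotated 3' UTR. The sequence GCCTACA, picked earlier from differences in these same data, was present on the transcript strand in the 3' UTR of 3 of 47 Rab genes (6.38%), against 8.32% of all genes searched. These sites are printed with 10 bases on either side, and capitals mark the match.
Rab11b: tctgcctcctGCCTACAccaccatagc
Rab33b: aatatgtacgGCCTACAgttcgttcat
Rab9b: agtgctctctGCCTACAttttacacag
One of these genes fell (Rab11b), another rose (Rab33b) and Rab9b did not pass. The other 9 Rab genes that fell, the Rab3 genes among them, held no such match in the annotated 3' UTR.

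Some values are uncertain because reads can be shared. Of the 50-base words of each gene's transcript, 90.4% occurred in transcripts of other annotated genes for Rab43 (Gm45140), 80.3% for Rab4b, 14.5% for Rab7 (Rab7-ps1), 13.0% for Rab5b (Gm13991) and 9.75% for Rab11b (Rab11b-ps2 and others). No other tested Rab gene exceeded 7.87%, the value for Rab9. Only the transcript of longest coding sequence was searched for each gene, so other annotated parts were not covered. That transcript was shorter than the longest annotated 3' UTR for Rab18 (729 against 5774 bases), Rab3b (1078 against 2511 bases) and Rab40c (2466 against 2679 bases). How strands were handled was not given in the sources used here, so an overlapping gene on the opposite strand cannot be separated. Exons of Rab2b overlapped by up to 2459 bases with Gm43766 and by 158 bases with Tox4, so the Rab2b value is uncertain. Exons of Rab24 overlapped by 830 bases with Prelid1. Those of Rab33b overlapped by 615 bases with Gm38160, of Rab6a by 409 bases with Mrpl48 and of Rab11b by 308 bases with Gm17251. For Rab39b the overlap was 351 bases with Gm15063, and for Rab3b 317 bases with 8030443G20Rik. For Rab5a it was 221 bases with Pp2d1, and for Rab7 204 bases with Gm5577. Rab10, Rab22a, Rab40c and Rab3a had opposite-strand overlaps of 29 to 132 bases. Prelid1 averaged 185 ± 6.20 FPKM in siCircGigyf2 libraries and 160.3 ± 5.10 FPKM in siNC libraries (SD, n = 3) and rose (log2 difference 0.20, limma adjusted p = 0.0023), far above Rab24 in level, so the Rab24 value is uncertain. Mrpl48 averaged 90.1 ± 5.49 FPKM in siCircGigyf2 libraries and 100.1 ± 4.60 FPKM in siNC libraries (SD, n = 3), lower where Rab6a was higher. Tox4 averaged 24.4 ± 0.836 FPKM in siCircGigyf2 libraries and 24.6 ± 0.749 FPKM in siNC libraries (SD, n = 3).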

How the data were processed

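RNA-seq values came from 6 libraries of CAD cells, 3 per group. Groups came from the treatment labels, and columns were matched to samples by title. The authors deposited 1 table of FPKM per gene symbol. Build mm9 is named in the submitters' processing notes, and neither the aligner, quantifier, annotation nor strand handling is given in the sources used here. FPKM are not counts, so no count model was used. Being relative, they carry nothing on the amount of RNA in a cell.

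Tests covered genes averaging 1 FPKM or more, as log2(FPKM + 1), by two-sided limma (version 3.58.1, R 4.3.3) with a variance trend and group as the single term. P-values were adjusted by Benjamini-Hochberg over all 11420 genes tested. The fit was tried on simulated data with independent noise for each gene and far fewer changed genes. That trial does not check its error rates in these data. Ratios of paralogs used exact permutation tests (scipy 1.17.1). Relative depth came from ratios of FPKM values under 0.3.

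Members, compartments and the 5 lists of Rab regulators and effectors were chosen with earlier results of these data known. Every Rab row is reported, and up to 4 genes of smallest p per list. A list member that this rule selects is not reported here, and the counts of its list include it. Of 174 listed genes 170 were in the table and 145 were tested. Transcript sequences were joined by symbol, or by RefSeq synonym, to GENCODE M21 (GRCm38), in which all 59 rows matched, and served only for sequence, length and overlap. Identity came from global alignment in Biopython 1.88. The fit was repeated with each library removed, with a pseudocount of 0.1, without a filter, with a filter of 5 FPKM, after quantile or median-of-ratios scaling, with a replicate block, without the trend and with robust moderation.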

Additional observations from a re-analysis of the deposited data

How the results depend on the processing

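Of the 22 Rab genes past the threshold, 15 kept direction and call under every alternative run, 7 lost the call under at least 1 and 0 changed direction. The 7 were Rab4a, Rab4b, Rab11a, Rab13, Rab23, Rab33a and Rab40b. The number of Rab genes called was 22, and lay between 17 and 20 with 1 library left out. It was 17 with no filter on low values (17130 genes tested), 20 after quantile normalization and 20 without a variance trend. With a filter of 5 FPKM, 19 of 38 Rab genes tested were called. Rab13, Rab33a and Rab40b, called in the main fit, lay under that filter and were not tested there. With no filter, Rab23, Rab4b, Rab11a, Rab4a and Rab40b no longer passed (limma adjusted p = 0.0703, 0.0855, 0.0525, 0.0538 and 0.108). Rab4b was also lost without a variance trend (0.0815).

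Correlations between samples gave no clear sign of pairing by replicate number, and cannot show how the samples were prepared. Deviations of same-numbered samples correlated at 0.163, -0.021 and 0.0025, and 2 of 6 libraries correlated best with their own number. With the replicate number as a block, 20 Rab genes and 3973 genes in all were called, and Rab33a and Rab23 no longer passed (limma adjusted p = 0.0545 and 0.0612).

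Signs changed only for Rab genes that did not pass. After quantile normalization the log2 difference was -0.00038 for Rab18, -0.0063 for Rab1 and 0.0030 for Rab3b. With 1 library left out the differences ranged from -0.059 to 0.025 for Rab1b, -0.028 to 0.021 for Rab18, -0.013 to 0.12 for Rab43, -0.045 to 0.070 for Rab24, -0.041 to 0.028 for Rab8a, -0.074 to 0.068 for Rab3b and -0.094 to 0.091 for Rab40c. The cause was not tested.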
